A study of Homo sapiens with 6 samples.

Results

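The lamins and the membrane proteins that tie them to the cytoskeleton were followed in A375, an established human melanoma cell line, after exposure to fluvastatin. The set held 10 genes chosen by name, LMNA, LMNB1, LMNB2, LBR, EMD, SUN1, SUN2, SYNE1, SYNE2 and TMPO, out of 29790 genes in the deposited table, and each name matched 1 row. The series compared 3 libraries of cells treated with 3 µM fluvastatin for 24 h with 3 libraries of control cells. Libraries were numbered 0, 1 and 2 in each group, and no dose or time was recorded here for the controls. Fluvastatin is a statin, a drug that inhibits HMG-CoA reductase and so limits the supply of cholesterol and of the isoprenoid lipids farnesyl and geranylgeranyl diphosphate. All 6 libraries came from the same cell line, and no label states whether the triplicates were grown as independent cultures. The p-values below thus reflect variation among 6 libraries that may be technical in origin.

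Lamins are intermediate filament proteins that form a meshwork, the nuclear lamina, beneath the inner nuclear membrane. LMNA encodes the A-type lamins, lamin A and its splice variant lamin C, while LMNB1 and LMNB2 encode the B-type lamins, which stay farnesylated at their carboxyl end and are held at the membrane. Emerin (EMD), the lamin B receptor (LBR) and the lamina-associated polypeptides made from TMPO bind lamins and chromatin. SUN proteins in the inner membrane and nesprins (the SYNE genes) in the outer membrane join in the space between them to form the LINC complex, which couples the lamina to actin, microtubules and intermediate filaments. Lamin composition is known to vary with tissue stiffness and with the state of the cell, and LMNB1 is known to decline in senescent cells.

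The coding ends of the 3 lamin genes are shown because they carry the signal through which the pathway blocked by the drug reaches these proteins. Each is the last 42 coding bases of the principal transcript in GENCODE release 29 on GRCh38, read 5′ to 3′ on the coding strand, with capitals marking the last 4 codons ahead of the stop. These 4 codons spell the CAAX signal, a cysteine followed by a pair of mostly aliphatic residues and a final residue, to which the farnesyl lipid is attached. The transcripts lie at chr1:156114707-156140089 on the plus strand, chr5:126777148-126837020 on the plus strand and chr19:2428166-2456996 on the minus strand.
LMNA: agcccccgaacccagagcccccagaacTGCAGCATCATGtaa
LMNB1: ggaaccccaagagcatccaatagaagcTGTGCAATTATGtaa
LMNB2: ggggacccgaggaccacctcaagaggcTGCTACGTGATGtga
A cysteine codon opened the last 4 codons in the principal transcripts of these 3 genes and in none of the other 7 genes of the set. Of 9 complete LMNA coding transcripts in that annotation, 5 ended in this way. The deposited values are per gene, so transcripts with and without the signal, lamin A and lamin C among them, were not separated.

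Values are FPKM, fragments scaled to transcript length and to the size of the library, a level that can be compared between genes because it is per length. A gene is said to have risen or fallen where limma, fitted to log2(FPKM + 1) over 14344 genes that reached 1 FPKM in 3 or more libraries, gave a Benjamini-Hochberg adjusted p below 0.05. All 10 genes passed that filter on low values. Log2 fold changes below are fluvastatin minus control on that scale, with the standard error, and group values are the mean ± SD of 3 libraries each.

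After fluvastatin the A-type lamin gene rose and both B-type lamin genes fell. LMNA and SUN1 rose, LMNB1, LMNB2, TMPO and SYNE1 fell, and LBR, EMD, SUN2 and SYNE2 did not pass. Over all genes tested 27.7% passed in either direction, 14.1% higher and 13.6% lower, against 2 higher and 4 lower of these 10. The 2 groups did not overlap in 9 of the 10 genes, 4 of them higher and 5 lower with fluvastatin. Over all genes tested that held for 44.8%, 21.9% higher and 22.9% lower. The median log2 fold change of the 10 genes was -0.02, beside -0.01 over all genes tested, with members moving in both directions.

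Steps between low values gave the libraries' relative depth, which was 1.27, 1.51 and 1.41 in fluvastatin replicates 0, 1 and 2 and 1, 1.19 and 0.966 in control replicates 0, 1 and 2, relative to control replicate 0. The shallowest treated library exceeded the deepest control, so that depth cannot be told apart from the drug by group. With the log2 depth as a covariate none of the 6 calls held, at adjusted p of 0.142 for LMNA, 0.144 for LMNB1, 0.137 for LMNB2, 0.120 for TMPO, 0.523 for SUN1 and 0.532 for SYNE1. Before adjustment LMNA was higher and LMNB1, LMNB2 and TMPO were lower at p below 0.05 in that limma fit, and the other members were not. Over the whole table it left 49 genes higher and 12 lower. The fitted log2 fold changes in it were 0.98 ± 0.26 for LMNA, -1.05 ± 0.28 for LMNB1, -0.91 ± 0.23 for LMNB2 and -0.85 ± 0.20 for TMPO. For SUN1 and SYNE1 they were 0.28 ± 0.22 and -0.33 ± 0.26. These standard errors exceeded those without the covariate, for example 0.26 against 0.13 for LMNA.

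**Figure D1:**
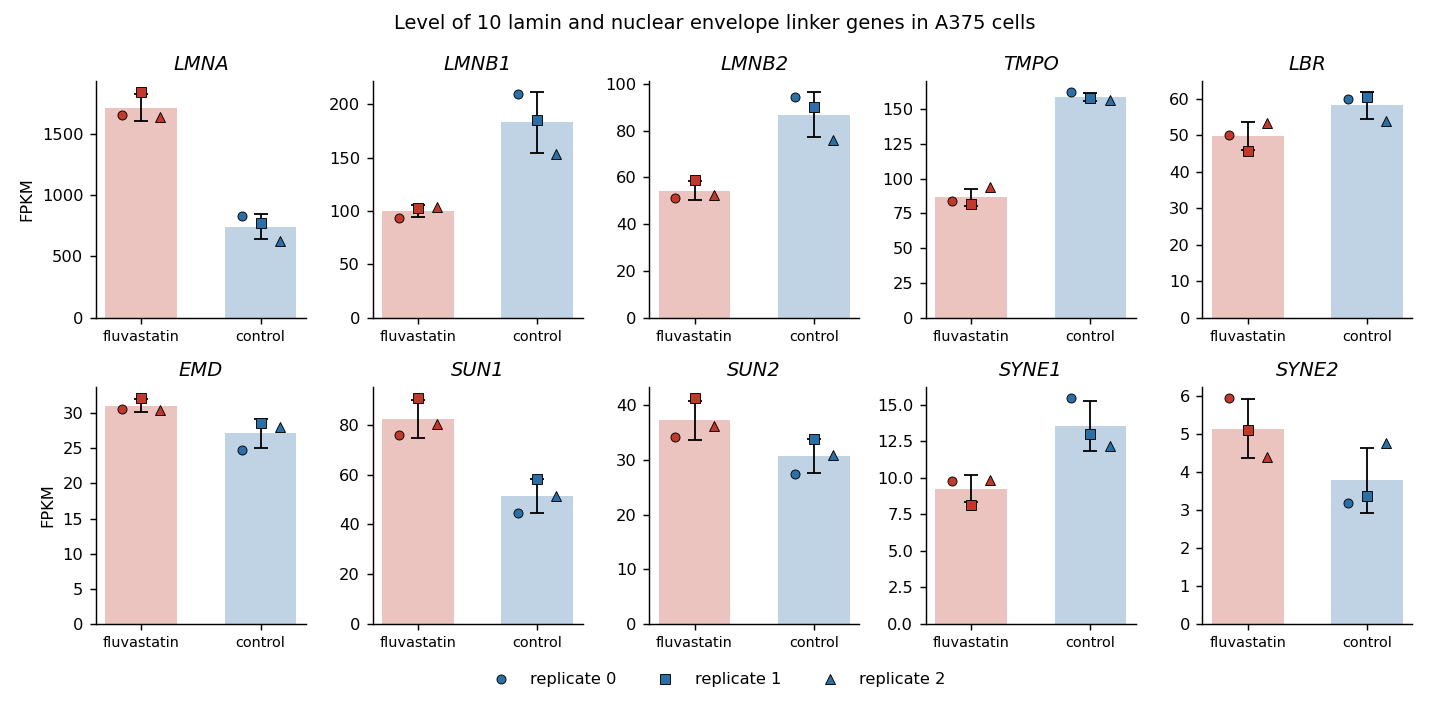
FPKM of the 10 genes in each fluvastatin library (left in each panel, red) and each control library (right, blue), with bars at the mean, error bars of 1 SD and marker shapes for replicates 0, 1 and 2. The linear axes start at 0, and the 2 groups overlap for SYNE2 alone.

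LMNA (ENSG00000160789.19, chr1:156082573-156140089, plus strand) was at 1655, 1837 and 1639 FPKM in fluvastatin replicates 0, 1 and 2, against 827, 769 and 627 FPKM in control replicates 0, 1 and 2. All treated libraries were far above the highest control. The means were 1710.4 ± 110.2 FPKM with fluvastatin and 741 ± 103 FPKM in controls, 2.31-fold higher (log2 fold change 1.21 ± 0.13, adjusted p = 0.00152). By level LMNA stood between place 19 and place 23 among 16206 protein-coding genes in the fluvastatin libraries and between place 87 and place 127 in the controls. By size its rise was number 271 of the 14344 genes. In bulk RNA, a change in the share of cells of one kind and a change in RNA per cell cannot be told apart.

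LMNB1 (ENSG00000113368.11, chr5:126776623-126837020, plus strand), a B-type lamin that contributes to holding heterochromatin at the nuclear periphery, fell. It was at 93.4, 102 and 104 FPKM in fluvastatin replicates 0, 1 and 2, against 209.7, 186 and 153 FPKM in control replicates 0, 1 and 2. The groups were apart, and the controls were more spread than the treated libraries. The means of 99.95 ± 5.75 FPKM with fluvastatin and 183 ± 28.2 FPKM in controls gave a log2 fold change of -0.86 ± 0.13 (adjusted p = 0.00557), 1.83-fold lower.

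LMNB2 (ENSG00000176619.11, chr19:2427638-2456996, minus strand), the other B-type lamin, was at 51.3, 59.04 and 52.5 FPKM in fluvastatin replicates 0, 1 and 2, against 94.3, 90.1 and 76.1 FPKM in control replicates 0, 1 and 2. The lowest control lay above the highest fluvastatin library. Its log2 fold change was -0.66 ± 0.11 (adjusted p = 0.00809), 1.60-fold lower.

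TMPO (ENSG00000120802.13, chr12:98515512-98550379, plus strand) encodes the LAP2 proteins, of which some sit in the inner nuclear membrane and bind lamin B while LAP2-alpha is nucleoplasmic and binds A-type lamins. The gene was at 84.1, 82.03 and 93.6 FPKM in fluvastatin replicates 0, 1 and 2, against 162, 158 and 157 FPKM in control replicates 0, 1 and 2. The controls were close together and all fluvastatin libraries were far below them. TMPO fell 1.84-fold, with a log2 fold change of -0.87 ± 0.09 (adjusted p = 0.00138), the smallest adjusted p of the 10 genes.

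LBR (ENSG00000143815.14, chr1:225401502-225428925, minus strand), which binds B-type lamins and heterochromatin and is also a sterol reductase of cholesterol synthesis, did not pass. It was at 50.1, 45.8 and 53.5 FPKM in fluvastatin replicates 0, 1 and 2, against 60.1, 60.6 and 54.1 FPKM in control replicates 0, 1 and 2. The highest fluvastatin value stood just under the lowest control. The log2 fold change was -0.22 ± 0.10, with a 95% interval of -0.46 to 0.01 (adjusted p = 0.141). EMD (ENSG00000102119.10, chrX:154379197-154381523, plus strand), the X-linked gene of emerin, a LEM-domain protein of the inner membrane, was at 30.6, 32.1 and 30.5 FPKM in fluvastatin replicates 0, 1 and 2, against 24.8, 28.6 and 28.02 FPKM in control replicates 0, 1 and 2. Its groups were also apart, by a small margin. The log2 fold change was 0.19 ± 0.09, with a 95% interval of -0.03 to 0.41 (adjusted p = 0.167).

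SUN1 (ENSG00000164828.17, chr7:816615-896435, plus strand), an inner membrane component of the LINC complex that is also tied to nuclear pores, rose. It was at 75.9, 90.7 and 80.5 FPKM in fluvastatin replicates 0, 1 and 2, against 44.4, 58.3 and 51.6 FPKM in control replicates 0, 1 and 2. The groups were apart, and in each of them replicate 1 was the highest library. SUN1 was 1.60-fold higher, with a log2 fold change of 0.67 ± 0.13 (adjusted p = 0.0113). SUN2 (ENSG00000100242.15, chr22:38734725-38794143, minus strand), its close relative, was at 34.2, 41.3 and 36.3 FPKM in fluvastatin replicates 0, 1 and 2, against 27.5, 33.8 and 30.9 FPKM in control replicates 0, 1 and 2. Its groups were apart by less than 1 FPKM. The log2 fold change was 0.27 ± 0.12, with a 95% interval of -0.01 to 0.55 (adjusted p = 0.133).

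SYNE1 and SYNE2 encode nesprin-1 and nesprin-2, giant spectrin-repeat proteins of the outer nuclear membrane whose longest forms bind actin, and they had the lowest levels of the set. SYNE1 (ENSG00000131018.22, chr6:152121684-152637801, minus strand) and SYNE2 (ENSG00000054654.15, chr14:63852983-64226433, plus strand) are given on GRCh38, like the other genes. SYNE1 was at 9.75, 8.16 and 9.87 FPKM in fluvastatin replicates 0, 1 and 2, against 15.4, 12.99 and 12.2 FPKM in control replicates 0, 1 and 2. It fell 1.46-fold, with a log2 fold change of -0.50 ± 0.12 (adjusted p = 0.0258). That call was lost when any fluvastatin library was left out (0.0606, 0.0743 and 0.0535 without replicates 0, 1 and 2), without control replicate 0 (0.0646) or 1 (0.0616), and with no filter on low values (0.0504). SYNE2 was at 5.94, 5.10 and 4.39 FPKM in fluvastatin replicates 0, 1 and 2, against 3.18, 3.38 and 4.77 FPKM in control replicates 0, 1 and 2. Control replicate 2 lay above fluvastatin replicate 2, so the groups overlapped. The log2 fold change was 0.37 ± 0.16, with a 95% interval of -0.01 to 0.75 (adjusted p = 0.129), and the gene passed without control replicate 2 (0.0424). The estimated depth put at least 44.1 fragments per kilobase behind every SYNE2 value and at least 163 behind every SYNE1 value.

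**Figure D2:**
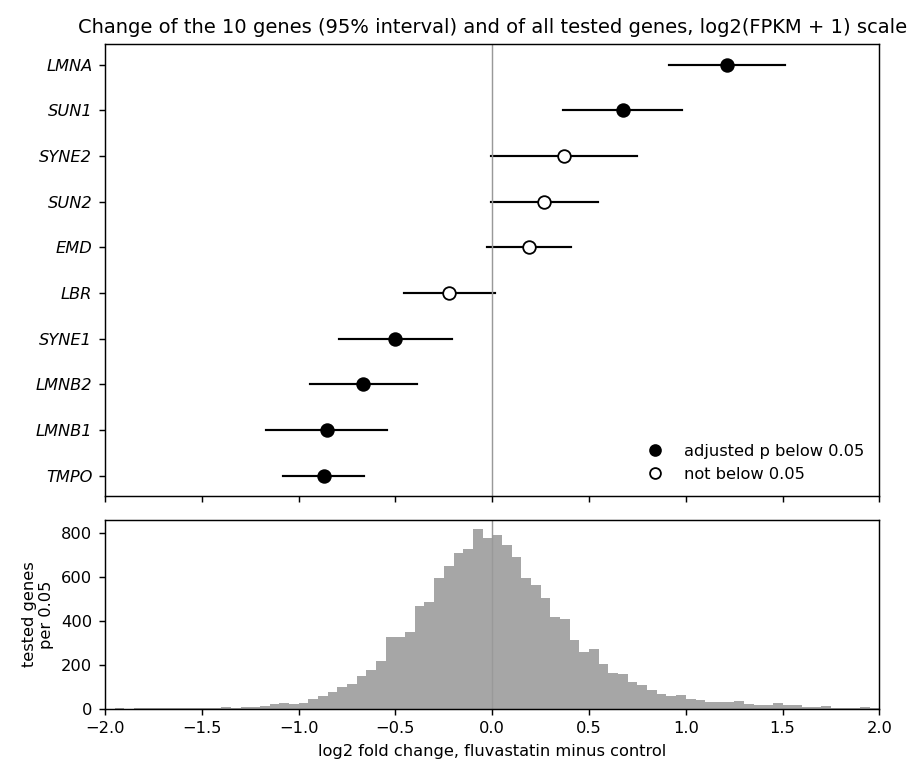
Above, the log2 fold change of each of the 10 genes, fluvastatin minus control on the log2(FPKM + 1) scale, with its 95% interval, filled where the adjusted p was below 0.05. Below, the number of tested genes per 0.05 of log2 fold change, where LMNA at 1.21 and TMPO at -0.87 lie toward its edges.

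**Figure D3:**
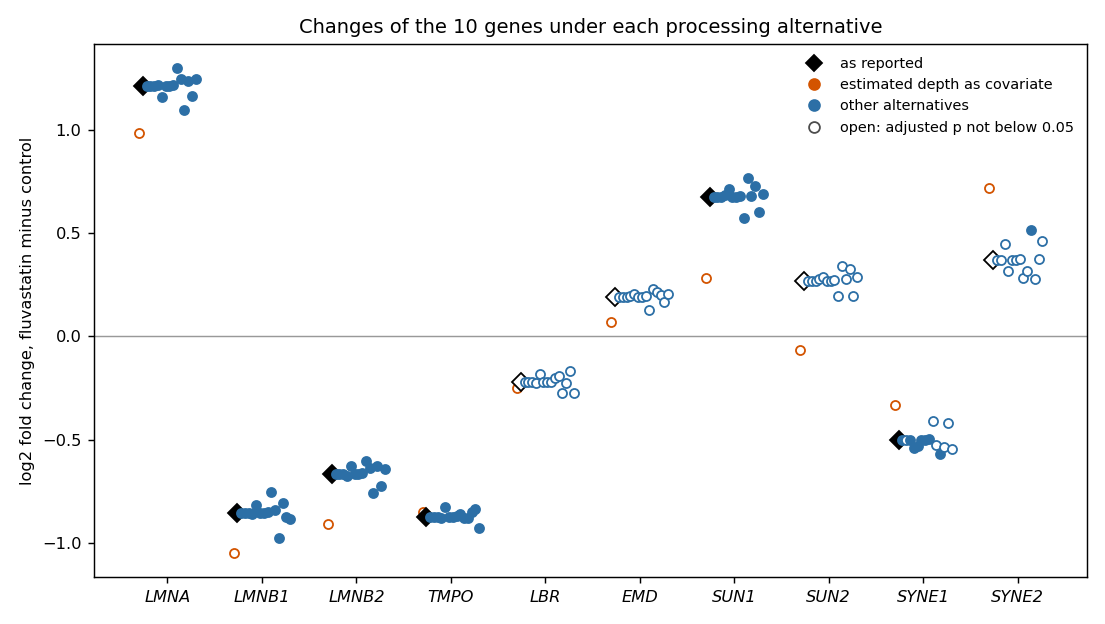
Log2 fold change of the 10 genes, fluvastatin minus control, as reported (black diamonds), with the estimated depth as a covariate (orange) and under the other alternatives (blue), filled where the adjusted p was below 0.05. LMNA ranges from 0.98 to 1.3 and TMPO from -0.93 to -0.82, and SUN2 alone crosses 0, in the depth fit.

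Ratios of related genes within a library do not change with a scaling factor applied to that library. LMNA exceeded LMNB1 17.7, 17.9 and 15.8 times in fluvastatin replicates 0, 1 and 2, against 3.94, 4.14 and 4.08 times in control replicates 0, 1 and 2. The spread within each group was small beside the gap, with a mean log2 ratio of 4.10 ± 0.10 with fluvastatin and 2.02 ± 0.04 in controls, a difference of 2.08. LMNA over LMNB2 had a mean log2 ratio of 4.98 ± 0.03 with fluvastatin and 3.09 ± 0.05 in controls. The B-type lamins kept closer to each other, since LMNB1 over LMNB2 had a mean log2 ratio of 0.88 ± 0.10 with fluvastatin and 1.07 ± 0.07 in controls. SUN1 over SUN2 had a mean log2 ratio of 1.15 ± 0.01 with fluvastatin and 0.74 ± 0.05 in controls. SYNE1 over SYNE2 had a mean log2 ratio of 0.85 ± 0.27 with fluvastatin and 1.86 ± 0.47 in controls, and the difference of -1.0 ranged from -1.26 to -0.79 when 1 library was left out. For all 5 ratios the groups did not overlap, and the two-sided exact permutation test gave p = 0.1, the smallest that 3 against 3 libraries allow, and 0.1 after adjustment over the 5. None of the ratios can therefore pass a threshold of 0.05 in this design.

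As a share of the summed FPKM of the 3 lamin genes, LMNA made up 91.7% ± 0.380 with fluvastatin and 73.3% ± 0.262 in controls (SD, n = 3 each). LMNB1 made up 5.37% ± 0.370 with fluvastatin and 18.1% ± 0.409 in controls, and LMNB2 2.91% ± 0.0527 with fluvastatin and 8.62% ± 0.273 in controls. The sum itself was 1865 ± 116 FPKM with fluvastatin and 1011 ± 141 FPKM in controls.

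**Figure D4:**
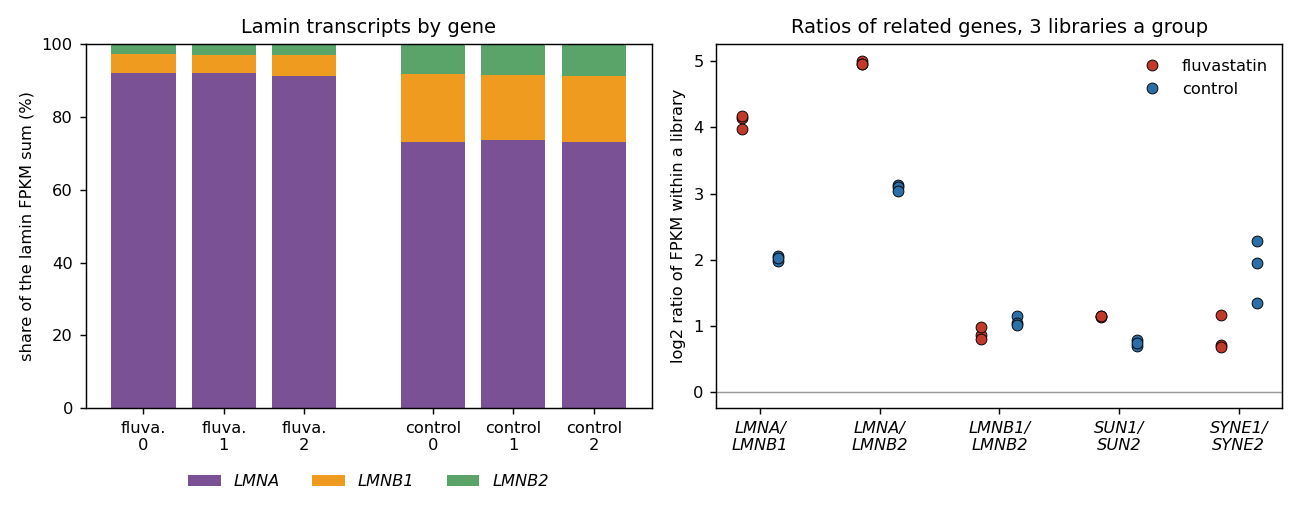
Left, the share of LMNA, LMNB1 and LMNB2 in the lamin FPKM sum of each library in percent, fluvastatin libraries first. Right, the log2 ratio of FPKM within each library for 5 pairs of genes, where LMNA over LMNB1 lies between 3.98 and 4.17 in the fluvastatin libraries and between 1.98 and 2.05 in the controls.

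The order of the levels changed in its middle. With fluvastatin it ran LMNA, LMNB1, TMPO, SUN1, LMNB2, LBR, SUN2, EMD, SYNE1, SYNE2. In controls it ran LMNA, LMNB1, TMPO, LMNB2, LBR, SUN1, SUN2, EMD, SYNE1, SYNE2. SUN1 thus stood at place 4 with fluvastatin and at place 6 in controls. With fluvastatin the ranges of the 3 libraries overlapped between LMNB1 and TMPO, between TMPO and SUN1, and between LMNB2 and LBR. In controls they overlapped between LMNB1 and TMPO, between LBR and SUN1, and between SUN2 and EMD. All other neighbours were apart in level.

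Promoter sequences are shown for LMNB1, LMNB2 and TMPO, which fell together by similar amounts. Each is the 250 bases before the transcription start of the RefSeq window (GRCh38.p14) nearest to the gene's principal transcript. Windows were found for 9 of the 10 genes, SUN1 being without one, and the nearest LMNA window lay 7991 bases from its principal start and was not used. The LBR window was used although it lay 786 bases from its principal start. The other windows used lay at most 98 bases away. Capitals mark matches on either strand to the CCAAT box, CCAAT, and to a pair of cell cycle homology region elements, TTTGAA and TTTAAA, both often found in promoters of cell cycle genes. No match to the E2F elements TTTCCCGC, TTTCGCGC, TTTGGCGC or TTTGCCGC lay in these 3 windows, and no matches overlapped.
LMNB1 (chr5:126776886-126777135, plus strand): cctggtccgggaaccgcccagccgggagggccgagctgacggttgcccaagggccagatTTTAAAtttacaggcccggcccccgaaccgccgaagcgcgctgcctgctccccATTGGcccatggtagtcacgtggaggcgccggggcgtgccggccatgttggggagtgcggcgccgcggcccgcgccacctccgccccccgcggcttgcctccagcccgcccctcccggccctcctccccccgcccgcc
LMNB2 (chr19:2456960-2457209, minus strand): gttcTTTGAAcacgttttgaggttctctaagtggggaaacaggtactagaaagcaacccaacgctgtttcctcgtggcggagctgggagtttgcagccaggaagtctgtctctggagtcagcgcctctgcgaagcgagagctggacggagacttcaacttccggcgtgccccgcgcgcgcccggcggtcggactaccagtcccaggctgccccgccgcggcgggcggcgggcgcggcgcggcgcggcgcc
TMPO (chr12:98515340-98515589, plus strand): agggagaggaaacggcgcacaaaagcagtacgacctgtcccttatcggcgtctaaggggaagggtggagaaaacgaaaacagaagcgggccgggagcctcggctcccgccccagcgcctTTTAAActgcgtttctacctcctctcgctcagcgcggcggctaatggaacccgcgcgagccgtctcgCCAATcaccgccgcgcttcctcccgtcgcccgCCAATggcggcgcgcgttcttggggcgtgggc
TMPO held 2 CCAAT boxes and 1 TTTAAA, LMNB1 held 1 of each, and LMNB2 held 1 TTTGAA. EMD, LBR and SYNE2, which did not pass, held 2 CCAAT boxes, 1 TTTAAA and 1 E2F element in that order, while SYNE1, which fell, and SUN2 held none. Of 35116 RefSeq windows, 32% held CCAAT, 13.3% TTTGAA, 11.3% TTTAAA and 2.79% an E2F element. The matches describe letters in these windows and are not evidence of binding.

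Other genes of the nuclear envelope were taken from lists by function, and their counts stand beside 14.1% higher and 13.6% lower over all genes tested. With the depth covariate 0 genes of any of the 6 lists below passed in limma, so every list call named here was lost in that fit. The 16 inner membrane and lamina partners had a median log2 fold change of -0.20, and 1 of them rose while 4 fell, a share near the 27.7% called over all genes. In the depth fit the median was 0.01, with 0 higher and 2 lower before adjustment. TMEM43 (LUMA), which binds emerin and lamins, rose 1.42-fold, with 50.9 ± 1.51 FPKM under fluvastatin and 35.9 ± 1.46 FPKM in controls (adjusted p = 0.00715). TMEM201 (SAMP1), an inner membrane protein linked to the LINC complex, fell 1.86-fold, with 8.63 ± 0.478 FPKM under fluvastatin and 16.04 ± 0.951 FPKM in controls (adjusted p = 0.00169). CBX1 and CBX3, heterochromatin proteins of the HP1 family, fell 1.4-fold and 1.45-fold (adjusted p = 0.00830 and 0.0143), and PSIP1, a chromatin-binding co-activator, fell 1.3-fold (adjusted p = 0.0350). BANF1, which bridges LEM-domain proteins and DNA, had a log2 fold change of -0.38 ± 0.19 and did not pass (adjusted p = 0.183). The LEM-domain genes LEMD2 and LEMD3 were at adjusted p = 0.408 and 0.371.

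Among 8 symbols of other SUN and KASH genes, of which KASH5 and CCDC155 name the same gene, 4 had values in these data. Of those 4, 2 were expressed highly enough to test. SYNE3, whose protein nesprin-3 binds the cytolinker plectin, was at 12.6, 12.9 and 13.7 FPKM in fluvastatin replicates 0, 1 and 2, against 8.96, 8.28 and 7.11 FPKM in control replicates 0, 1 and 2. It rose 1.61-fold (log2 fold change 0.63 ± 0.10, adjusted p = 0.00712), and SPAG4 did not pass (adjusted p = 0.236). In the depth fit neither gene was below 0.05 before adjustment. Of 9 cytoplasmic partners of nesprins, 3 rose, 1 fell and 5 did not pass, with a median log2 fold change of 0.09. Before adjustment the depth fit had 3 higher and 0 lower in this list. PLEC, which encodes plectin, was at 502, 401 and 478 FPKM in fluvastatin replicates 0, 1 and 2, against 212, 218 and 218 FPKM in control replicates 0, 1 and 2, and rose 2.13-fold (adjusted p = 0.00134). The kinesin light chain gene KLC1 rose 1.56-fold (adjusted p = 0.00355) and the dynein heavy chain gene DYNC1H1 1.48-fold (adjusted p = 0.0196). FHOD1, a formin that binds nesprin-2 and actin, fell 1.64-fold (adjusted p = 0.0112).

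None of the 5 genes of lamin farnesylation and CAAX processing passed in limma, 0 were below 0.05 before adjustment, and their median log2 fold change was -0.01. ZMPSTE24, the protease that cleaves prelamin A, was at 42.6 ± 1.93 FPKM with fluvastatin and 43.1 ± 2.94 FPKM in controls, a log2 fold change of -0.02 with a 95% interval of -0.23 to 0.20. The farnesyltransferase subunit FNTB varied widely, at 7.86 ± 3.71 FPKM with fluvastatin and 7.28 ± 3.34 FPKM in controls. The spread came from replicate 2 in each group. FNTB was at 6.36, 5.13 and 12.1 FPKM in fluvastatin replicates 0, 1 and 2, against 5.17, 5.55 and 11.1 FPKM in control replicates 0, 1 and 2. Of 8 tested genes of lamin phosphorylation and envelope reassembly, 3 fell and 0 rose by limma (3 and 1 before adjustment), with a median log2 fold change of -0.13. Those were the mitotic kinases CDK1 (1.45-fold, adjusted p = 0.00733) and PLK1 (1.62-fold, 0.0132) and the chromatin kinase VRK1 (1.39-fold, 0.0155). CHMP4B, an ESCRT-III subunit used in sealing the envelope, stood at adjusted p = 0.0501 with a log2 fold change of 0.33 ± 0.10, and passed in 4 alternatives, a mean of at least 5 FPKM, protein-coding genes alone, quantile normalization, and trend and robust estimation, at adjusted p of 0.0299 to 0.0402. Before adjustment the depth fit had 0 higher and 1 lower in this list.

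Genes of proliferation were lower with fluvastatin, as were the B-type lamins and TMPO. That likeness is in direction between the groups and does not describe the libraries inside a group. All 15 listed genes fell, MKI67, TOP2A, CCNA2, CCNB1, CDK1, PCNA, MCM2, MCM3, MCM4, MCM5, MCM6, MCM7, RRM2, TYMS and UHRF1, where 13.6% of all genes tested did. The groups were apart in each, and the median log2 fold change was -0.86. With the depth covariate 0 of the 15 passed in limma (smallest adjusted p 0.0674), 13 were lower before adjustment, and the median was -0.97. Their summed level was 1216 to 1327 FPKM in the fluvastatin libraries and 2214 to 2292 FPKM in the controls. MCM2, a subunit of the replicative helicase, fell 2.22-fold, and CCNB1, the mitotic cyclin B1, fell 1.90-fold. The part of proliferation in the change of the lamin genes was not tested.

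**Figure D5:**
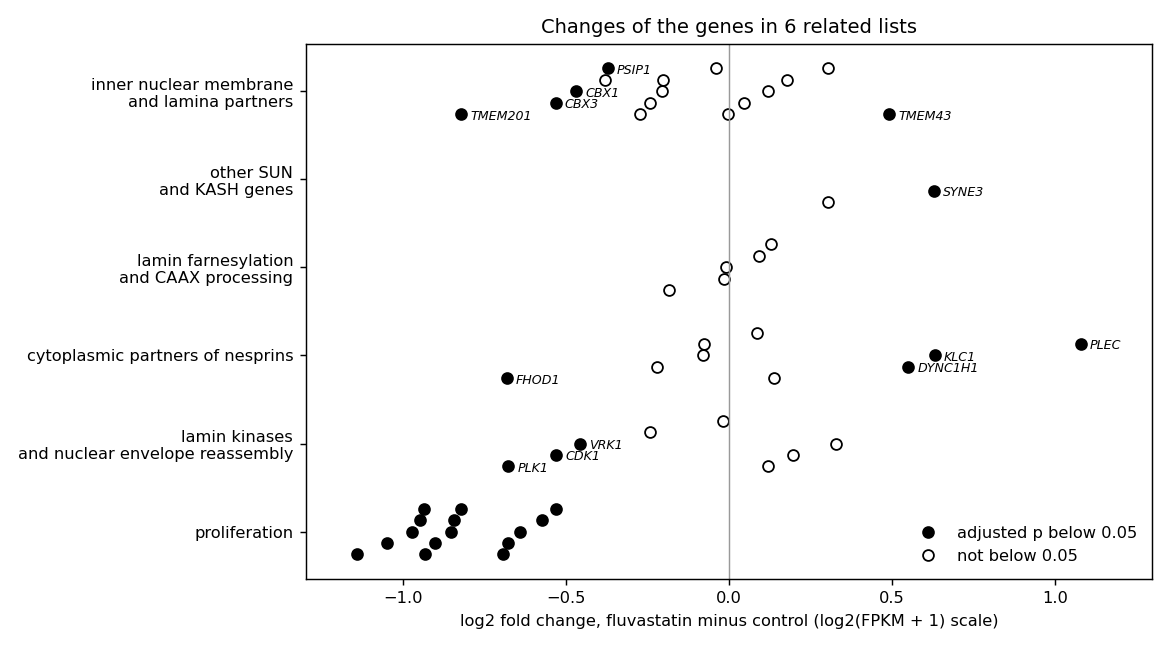
Log2 fold change, fluvastatin minus control on the log2(FPKM + 1) scale, of every tested gene in the 6 lists, filled where the adjusted p was below 0.05 and named there except in the proliferation list. PLEC at 1.08 is farthest to the right and MCM2 at -1.14 farthest to the left; vertical offsets within a list only separate the points.

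Some members share genome sequence with other genes. Strand cannot tell apart the reads of genes that overlap on the same strand. For genes on opposite strands no strand setting is stated. TIMM13, a mitochondrial import chaperone gene that overlaps LMNB2 by 257 bases on the same strand, fell with it, at 45.1 ± 5.03 FPKM with fluvastatin and 65.6 ± 10.6 FPKM in controls (adjusted p = 0.0423). GET4 overlaps the annotated span of SUN1 by 19884 bases on the same strand and was at 23.7 ± 2.4 FPKM with fluvastatin and 18.7 ± 2.53 FPKM in controls (adjusted p = 0.108). TMPO-AS1, on the strand opposite TMPO, was at 3.00 ± 0.813 FPKM with fluvastatin and 4.58 ± 0.248 FPKM in controls (adjusted p = 0.0512). DNAL4 overlaps SUN2 by 15636 bases on the same strand, and AL021707.8 does so by 183 bases. DNAL4 was at 2.73, 3.35 and 2.62 FPKM in fluvastatin replicates 0, 1 and 2. In control replicates 0, 1 and 2 DNAL4 was at 2.72, 2.38 and 2.68 FPKM. GTPBP1, on the strand opposite SUN2, overlaps it by 3575 bases. It was at 23.7, 22.7 and 22.3 FPKM in fluvastatin replicates 0, 1 and 2. In control replicates 0, 1 and 2 GTPBP1 was at 24.7, 31.4 and 21.8 FPKM. TMPOP2, a processed pseudogene of TMPO, stayed below 0.7 FPKM in every library.

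The genes whose log2(FPKM + 1) followed LMNA most closely over the 6 libraries, among 10167 genes ranked, were DNAJB2, MICALL1 and DPYSL2, each at a Pearson's r of 0.999. Those closest to LMNB1 were TRIM28 at 0.999, MTPAP at 0.997 and TTF2 at 0.997. Such values describe a pattern over 2 groups that lie apart, so they mostly carry the difference between the groups, and the points share library and depth.

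Taken across genes, whose values are not independent, pairs of libraries correlated at a Pearson's r of 0.970 to 0.979 inside a group and 0.949 to 0.957 across the groups. The melanocyte lineage factors SOX10, MITF and PAX3 were expressed. SOX10 averaged 72.0 FPKM with fluvastatin and 23.3 FPKM in controls. MITF averaged 6.68 FPKM with fluvastatin and 7.18 FPKM in controls, and PAX3 6.41 and 6.56 FPKM in that order. The pigmentation genes PMEL, TYRP1 and DCT, and also S100A1 and S100B, averaged below 1 FPKM in each group. MLANA and TYR were not analysed here. The 8 lineage markers measured summed to 79.04 to 91.0 FPKM in the fluvastatin libraries and 34.2 to 41.4 FPKM in the controls, mostly as SOX10. Of 4 leukocyte markers 1 was analysed here. Summed leukocyte, endothelial and epithelial markers stayed below 0.4 FPKM in every library. Fibroblast markers, mostly COL1A1, summed to 5.14 to 7.38 FPKM in the fluvastatin libraries and 9.31 to 12.8 FPKM in the controls, and their part in the results was not tested.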

How the data were processed

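RNA was measured by sequencing in 6 libraries. The authors' tools were STAR, Cufflinks and Cuffdiff on hg38, per the submitters' processing notes. Their versions, the annotation release, the strand setting and any scaling are not given in the sources used here. Values in the deposited table were taken as FPKM from its non-whole values and its library sums of 686133 to 729564. Of 29790 identifiers, 29542 matched GENCODE release 29, ignoring versions. The main test was limma 3.58.1 (R 4.3.3) with its default empirical Bayes settings on log2(FPKM + 1), two-sided, with Benjamini-Hochberg adjustment over 14344 genes. On simulated data over these genes it recovered 42% of 50 genes changed by log2 0.5 and 92% of 50 changed by 1, with 9 calls on unchanged genes among 176. The simulation drew independent noise without a depth effect and changed only genes above a minimum level. Its rates thus do not cover the depth difference between these groups. FPKM holds no counts: relative depth is the commonest ratio of low values between libraries, and absolute depth, estimated from 536 genes with a single transcript, is approximate. Named genes were the 10 members, the passing genes of 6 lists with at most 4 others each, overlapping genes, the 3 genes most like LMNA and LMNB1, and genes of the cell type marker lists. The members and lists were chosen with earlier results of these data known.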

Additional observations from a re-analysis of the deposited data

How the results depend on the processing

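The calls of LMNA, LMNB1, LMNB2, TMPO and SUN1 kept their direction and side of the threshold in 14 of 15 alternatives each, with adjusted p of at most 0.0388 in those 14, and were lost with the estimated depth as covariate. SYNE1 kept its call in 8 of 15. No gene of the 6 other lists passed in the depth fit. That depth fit left 0 of the 10 genes higher and 0 lower, with 1 and 3 below 0.05 before adjustment in limma, and 49 and 12 over all genes. It also turned SUN2 to a log2 fold change of -0.0678; the cause was not tested. Leaving out 1 library gave 1274 to 1785 genes higher and 1066 to 1631 lower over all genes, with fewer samples in each fit. The median of all genes stayed between -0.03 and 0.01 under every setting, scalings included. The replicate numbers are shared between the groups but no source says that they pair the samples. Deviations of same-numbered libraries correlated at -0.0015, 0.085 and 0.084, and fluvastatin replicate 0 correlated best with control replicate 2. With the replicate block 1658 genes were higher and 1496 lower, and the 10 genes still counted 2 higher and 4 lower. Paired by number, the 5 ratios gave an exact sign-flip p = 0.25, the smallest that 3 pairs allow. All 5 ratios kept their sign in every alternative run. Groups that do not overlap must keep it when 1 library is left out, and pairing by number leaves the mean difference unchanged. The ratios were not fitted with the depth covariate. The labels give no batch.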
